A study of Mus musculus with 6 samples.

Results

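The genes described here are 9 genes of the LIF-JAK-STAT3 pathway and the PIM kinase family: the receptor genes Lifr and Il6st, the kinase genes Jak1 and Jak2, the transcription factor gene Stat3, its inhibitor gene Socs3, and Pim1, Pim2 and Pim3. They were chosen by symbol from a table of 51912 genes, and each symbol matched 1 Ensembl identifier. All 9 passed the filter on low counts, which left 14889 genes. The change of Pim2 between the time points was known when the group was put together. The difference between 48 h and 24 h is therefore given for these 9 genes as a description, with standard errors and no p-values.

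The cells were R1 mouse embryonic stem cells, an established line, grown in 2iLIF (inhibitors of MEK and GSK3 with the cytokine LIF) and then moved to the serum-free medium N2B27, to which FGF2 was added (100 ng/ml). There were 3 RNA-seq libraries at 24 h and 3 at 48 h of that treatment. The treatment label names N2B27 and FGF2 and no LIF. Cells kept in 2iLIF, and cells in N2B27 without FGF2, were not analysed here, so the loss of LIF, the loss of the inhibitors, FGF2 and time in culture cannot be told apart. No label says whether the replicates were separate cultures, so p-values measure only the spread between these libraries, which may be technical.

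LIF is the cytokine that holds mouse embryonic stem cells in the naive state. It binds the LIF receptor, which pairs with the shared signalling chain encoded by Il6st. The JAK kinases bound to both chains then phosphorylate STAT3, which enters the nucleus and switches on target genes. Among these are Socs3, whose product blocks the receptor and its kinases, and, in embryonic stem cells, Pim1 and Pim3. PIM proteins are serine/threonine kinases that are active as soon as they are made, so that their level of expression largely sets their activity.

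From 24 h to 48 h the 9 genes moved apart. Pim2 was 10.3-fold higher at 48 h, while Stat3 and Socs3 were 2.06-fold and 2.48-fold lower. Il6st and Jak2 were 1.63-fold and 1.59-fold lower, and Jak1 was 1.14-fold lower. Lifr, Pim1 and Pim3 differed by at most 1.06-fold between the group means. In the fit across all genes 7 of the 9 genes were called, 1 higher and 6 lower, where 62.8% of all tested genes were called, 30.9% higher and 31.9% lower. Pim1 and Pim3 were not called, and Lifr lost its call with DESeq2 and without replicate 2 of 24 h or replicate 1 or 3 of 48 h. The values of the time points did not overlap for 8 of the 9 genes, where 66.9% of all tested genes did not overlap. Because the contrast was known when the genes were chosen, nothing is read from these counts.

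**Figure D1:**
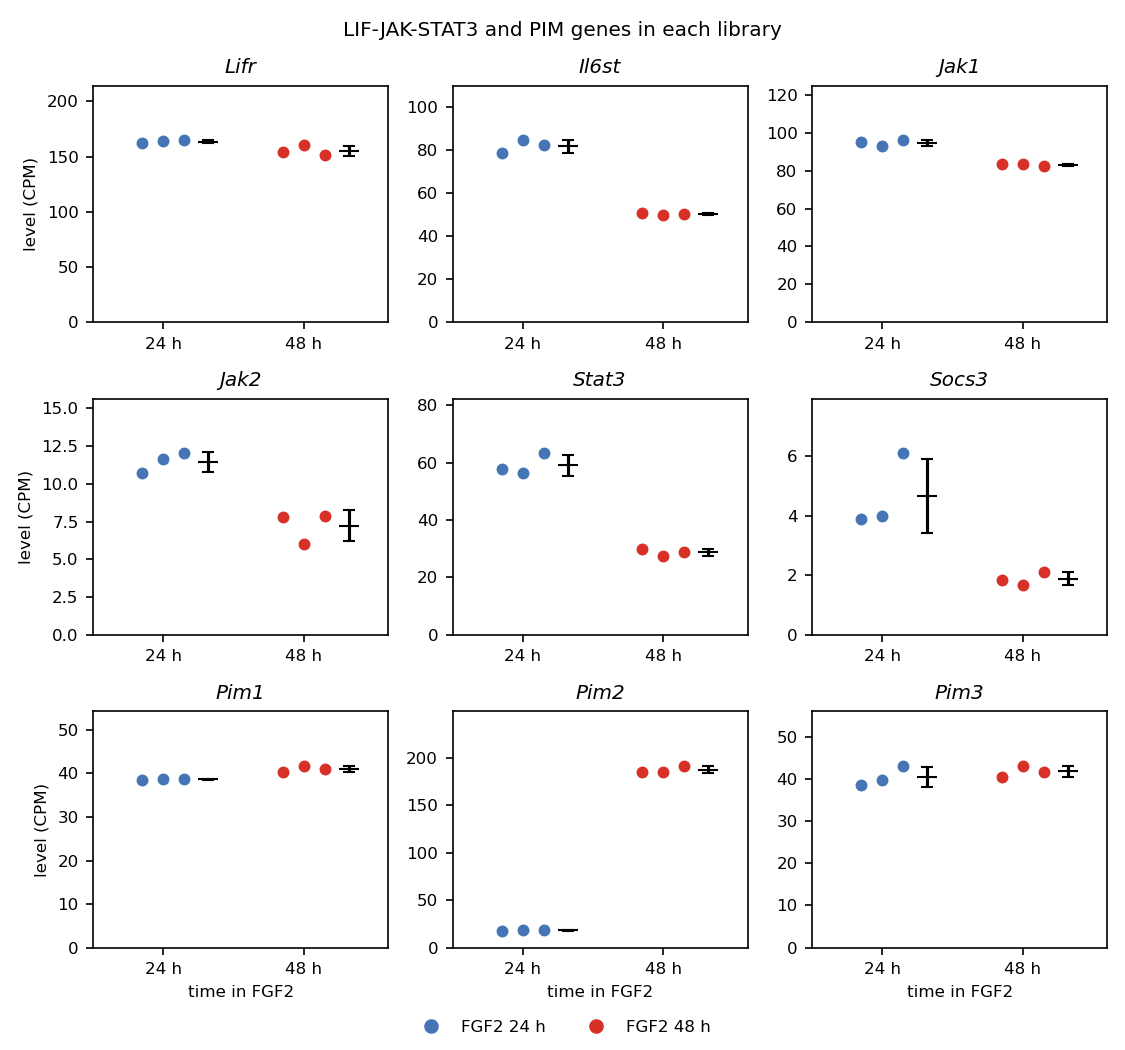
Level of each of the 9 genes in CPM (linear axis from 0) in the 3 libraries at 24 h (blue) and the 3 at 48 h (red), with the mean and SD in black. Pim2 goes from about 18.1 to 187.4 CPM, Stat3 and Socs3 sit lower at 48 h in every library, and for Pim3 alone the values of the time points overlap.

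Levels are given as CPM, counts scaled to the TMM-adjusted size of each library. The libraries held between 19574969 and 23133148 estimated counts, so that 10 counts stood for 0.424 to 0.501 CPM. Spearman correlations of log2 CPM across genes were at least 0.9965 within a time point and at most 0.9754 across time points. Of 6 pluripotency markers all were tested, and their summed level was 3970.4 to 3990.4 CPM at 24 h and 3552 to 3684 CPM at 48 h. They did not move together: Sall4, Utf1 and L1td1 were called higher, and Pou5f1, Sox2 and Zfp42 lower. Their median log2 fold change was 0.07, and Zfp42 fell the most, from a mean of 1034.4 to 494.6 CPM. The 8 fibroblast markers summed to 4.05 to 6.02 CPM at 24 h and 3.13 to 4.47 CPM at 48 h, with Postn and Lum at 0 counts in all libraries. Of the 4 that were tested, 2 were called lower: Pdgfrb (means 2.06 and 0.593 CPM) and Col1a1 (1.03 and 0.304 CPM). Dcn was called higher, from 0 in all 24 h libraries to 1.06 to 1.44 CPM at 48 h. The summed level of the 6 primitive endoderm markers was 9.31 to 11.1 CPM at 24 h and 5.58 to 6.31 CPM at 48 h. Of the 3 that were tested, Gata4 was called lower (means 5.84 and 2.25 CPM), and Dab2 and Pdgfra did not pass. The summed level of the 5 trophoblast markers was 7.06 to 7.84 CPM at 24 h and 2.26 to 2.47 CPM at 48 h, mostly Tfap2c, with Cdx2 at 0 or 1 count. The 5 mesoderm markers summed to 1.74 to 1.95 CPM at 24 h and 0.541 to 0.828 CPM at 48 h, and Kdr, the only one tested, fell (log2 fold change -1.80 ± 0.29). The 6 neural markers summed to 103.98 to 113.5 CPM at 24 h and 128.9 to 136.5 CPM at 48 h, and Pax6, Sox1 and Map2 among them rose, while Tubb3 fell. Genes in each of these lists also differed between the time points, some higher and some lower, and their part in the results was not tested. In such bulk libraries fewer cells of a type and less RNA per cell cannot be told apart.

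The PIM genes were first compared with each other. Pim2 (ENSMUSG00000031155, chrX:7878262-7883432, plus strand, GRCm38) had 17.5, 18.4 and 18.5 CPM in the 24 h libraries and 185.6, 185.02 and 191.5 CPM in the 48 h libraries. All 48 h libraries were high, the gap between the groups was far wider than the spread within them, and the means were 18.1 ± 0.56 and 187.4 ± 3.59 CPM (SD, n = 3 at each time). This gave a log2 fold change of 3.37 ± 0.04 (standard error), which ranked 47 from the top among the 14889 tested genes. The counts behind it were 349, 376 and 437 at 24 h and 4033, 4048 and 4245.99 at 48 h.

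Pim1 (ENSMUSG00000024014, chr17:29490753-29496112, plus strand) had 38.5, 38.7 and 38.7 CPM at 24 h and 40.2, 41.7 and 41.05 CPM at 48 h. The 48 h values lay just above those of 24 h without overlap, with a log2 fold change of 0.09 ± 0.04 (standard error). An exon of the non-coding gene Gm26885 on the opposite strand covers 488 bases of Pim1, and no source says whether counting was strand-specific, so its reads may be among those of Pim1. Pim3 (ENSMUSG00000035828, chr15:88862186-88865726, plus strand) had 38.6, 39.8 and 43.1 CPM at 24 h and 40.5, 43.1 and 41.8 CPM at 48 h. Its values overlapped, with a log2 fold change of 0.04 ± 0.05. With library size as the only scaling the values were 0.02 for Pim1 and -0.02 for Pim3, so the sign of Pim3 depended on the scaling.

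The makeup of the family therefore differed between the time points. Levels were set against each other per kilobase of exon, as CPM divided by the length of all annotated exons of a gene. The same length was used in every library and may differ from that of the transcripts present. An SD per kilobase therefore leaves out any error in length. At 24 h Pim3 had 16.7 ± 0.96, Pim1 had 11.5 ± 0.04 and Pim2 had 6.48 ± 0.20 CPM per kb (SD, n = 3). At 48 h Pim2 had 67.04 ± 1.28 CPM per kb, while Pim3 and Pim1 had 17.2 ± 0.53 and 12.2 ± 0.22. The share of Pim2 in the summed level of the 3 genes was 18.6%, 19.04% and 18.5% in the 24 h libraries and 69.8%, 68.7% and 69.96% in the 48 h libraries. The summed level went from 34.7 ± 1.16 to 96.5 ± 1.43 CPM per kb.

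**Figure D2:**
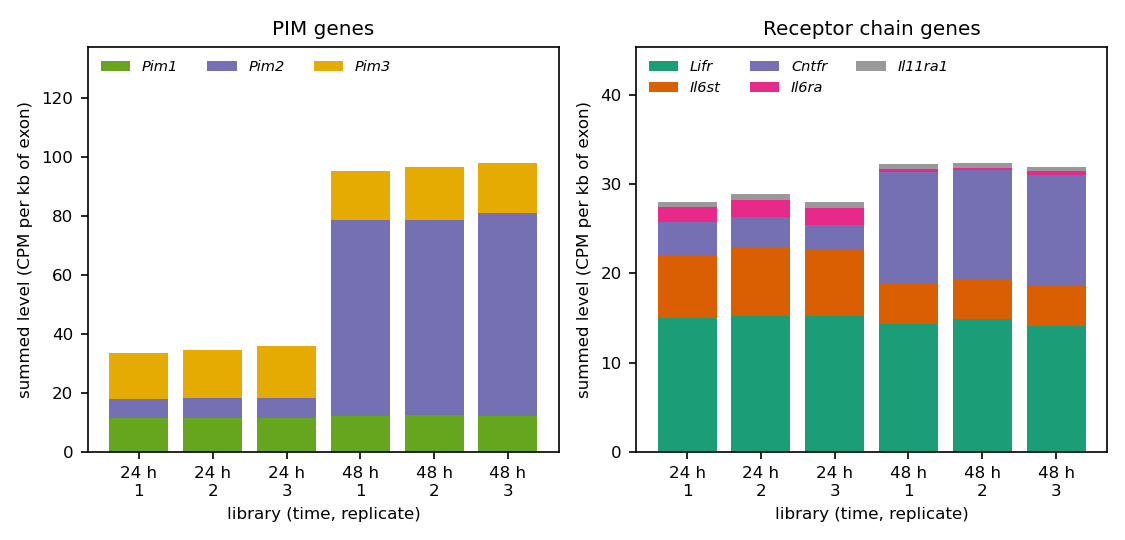
Stacked level in CPM per kb of exon (linear axis from 0) in each of the 6 libraries, for the PIM genes (left) and for receptor chain genes of the IL-6 family (right). Pim2 is the smallest PIM part at 24 h, 18.7% on average, and the largest at 48 h, 69.5%; on the right Il6st and Il6ra shrink while Cntfr grows and Lifr stays the largest part.

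The promoter of Pim2 is shown because Pim2 is the gene of the group that differed most between the time points. The stretch below is chrX:7878096-7878261 of GRCm38.p6, plus strand, from RefSeq, and ends before the annotated start of the gene. Capitals mark the octamer ATGCAAAT, which POU factors such as the product of Pou5f1 are known to bind, on either strand, and ATCAAAG, letters that TCF and LEF factors are known to bind.
Pim2: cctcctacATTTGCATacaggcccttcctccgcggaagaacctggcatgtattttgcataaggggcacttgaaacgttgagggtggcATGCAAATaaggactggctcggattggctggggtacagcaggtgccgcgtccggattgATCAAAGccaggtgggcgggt
The 2 octamers begin 202 and 123 bases before the RefSeq start, 1 on each strand, and ATCAAAG begins 65 bases before it. None of these matches overlaps another. In RefSeq promoter windows from 250 bases before to 50 bases after a start, the octamer was found at least once in 1.74% of 32851 entries and at least 2 times in 0.107%, both strands searched, and ATCAAAG in 3.73%. Of the 11 windows of the 9 genes, the window of Pim2 held the octamer and ATCAAAG and the other 10 held neither. Both motifs were picked after this sequence had been read, and a match of letters does not show binding.

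The receptor chains and their ligands come next. Lifr (ENSMUSG00000054263, chr15:7090614-7197489, plus strand), which gives LIF its specific receptor, had 161.8, 164.3 and 164.5 CPM at 24 h and 153.8, 160.5 and 151.4 CPM at 48 h. All 48 h values lay below those of 24 h, by a log2 fold change of -0.08 ± 0.03 (standard error), which was -0.14 with library size as the only scaling. Il6st (ENSMUSG00000021756, chr13:112464070-112510086, plus strand), the chain shared by the receptors of the IL-6 family, had 78.6, 84.6 and 82.7 CPM at 24 h and 50.6, 49.9 and 50.4 CPM at 48 h. The groups stood well apart, with a log2 fold change of -0.71 ± 0.04. Per kilobase of exon Lifr RNA was 2.06 ± 0.06 times as abundant as Il6st RNA at 24 h and 3.18 ± 0.12 times at 48 h (SD, n = 3). The RNA balance of the pair thus lay further toward Lifr in all 48 h libraries, and the receptor proteins were not measured.

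Among 6 other genes of receptor chains, 4 were tested by edgeR's quasi-likelihood test with Benjamini-Hochberg adjustment over all genes, and 1 rose while 2 fell, where 30.9% of all tested genes were called higher and 31.9% lower. Their median log2 fold change was -0.60, beside -0.01 for all tested genes. This list and those below were chosen with earlier results of these data known, so their values are a description. Il6ra, which gives IL-6 its specific receptor, fell from 14.8, 15.8 and 16.4 CPM to 2.49, 2.29 and 3.16 CPM, a 5.93-fold difference of means (log2 fold change -2.57 ± 0.11, adjusted p = 5.08e-12). Cntfr, which encodes the binding chain for ciliary neurotrophic factor and works with Lifr and Il6st, rose from 10.2, 9.72 and 7.5 CPM to 34.9, 33.8 and 34.7 CPM (log2 fold change 1.93 ± 0.08, adjusted p = 2.78e-12). No value of either gene at 48 h fell within its range at 24 h. Cntfr thereby made up 11.5% ± 1.74 of the summed receptor chain level per kilobase at 24 h and 38.4% ± 0.87 at 48 h (SD, n = 3). Over the same 7 chains Lifr held 53.2% ± 0.95 and 44.6% ± 1.06, and Il6st held 25.9% ± 0.69 and 14.02% ± 0.20.

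Il27ra, at most 19 counts in a library, fell (log2 fold change -0.96 ± 0.39, edgeR adjusted p = 0.0399) but lost its call in 5 of the 6 fits that each left out 1 library, which were those without replicate 2 or 3 of 24 h or replicate 1, 2 or 3 of 48 h. Its value was -0.70 (adjusted p = 0.196) without replicate 2 of 24 h, and with the replicate number as a block it was -0.96 (adjusted p = 0.0588). Over all alternatives its adjusted p reached at most 0.196. Il11ra1 did not pass (-0.24 ± 0.17, adjusted p = 0.219). Osmr, the oncostatin M receptor gene, had at most 3 counts in a library and was not tested.

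Of 9 ligand genes of the IL-6 family 5 were tested, and 1 of them, Lif itself, fell, where 31.9% of all tested genes were called lower. Their median log2 fold change was -0.11, beside -0.01 for all tested genes. Lif had 8.11, 7.52 and 8.26 CPM at 24 h and 6.90, 6.54 and 6.68 CPM at 48 h. The groups did not overlap, and the difference was small (log2 fold change -0.25 ± 0.09, edgeR adjusted p = 0.0287). The call was lost with DESeq2 (-0.24, adjusted p = 0.157, the highest over the alternatives) and without replicate 1 (adjusted p = 0.065) or 3 (0.0882) of 24 h, or replicate 2 (0.0736) or 3 (0.0628) of 48 h. Without replicate 3 of 24 h the gene Clcf1 was tested as well and was called (log2 fold change 1.24, edgeR adjusted p = 0.0489), on 5 to 17 counts per library over all 6 libraries. Ctf2 did not pass (-0.52 ± 0.27, adjusted p = 0.0985). Il6 had at most 2 counts in a library.

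The JAK kinases relay the signal from the receptor chains. Jak1 (ENSMUSG00000028530, chr4:101152367-101265282, minus strand), the kinase most tied to signalling through Il6st, had 95.4, 92.97 and 95.99 CPM at 24 h and 83.4, 83.3 and 82.7 CPM at 48 h. The 48 h values were tightly grouped and lay below all 24 h values, with a log2 fold change of -0.19 ± 0.03 (standard error). Jak2 (ENSMUSG00000024789, chr19:29251828-29313080, plus strand), which also serves many single-chain cytokine receptors, had 10.7, 11.6 and 12.04 CPM at 24 h and 7.78, 6.03 and 7.85 CPM at 48 h. Replicate 2 of 48 h was the lowest, and the log2 fold change of -0.67 ± 0.10 became -0.55 without it.

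Of 7 other JAK and STAT genes all were tested and all 7 were called by edgeR, 1 higher and 6 lower, where 62.8% of all tested genes were called, 30.9% higher and 31.9% lower. Their median log2 fold change was -0.77, beside -0.01 for all tested genes. They were called in each alternative and each fit without 1 library. This list too was chosen with earlier results known, so these calls are a description. Jak3, the kinase of the common gamma chain receptors, fell from 38.1, 37.3 and 40.8 CPM to 12.9, 11.4 and 12.04 CPM (log2 fold change -1.68 ± 0.06, adjusted p = 4.95e-13). Its counts were fractional in all libraries, and 404 bases of its exons are shared with Insl3 on the same strand, so its level is uncertain by the reads divided between them. Tyk2 also fell (log2 fold change -0.16 ± 0.04, adjusted p = 0.00168). Exons of a gene on the opposite strand cover 554 bases of Tyk2, so reads of that gene may be among its counts. Per kilobase of exon Jak1 was the most abundant of the 4 JAK genes at both times, at 13.1 ± 0.22 and 11.5 ± 0.05 CPM per kb (SD, n = 3), and Jak2 the least, at 2.28 ± 0.13 and 1.44 ± 0.20. Jak3 and Tyk2 lay close together at 24 h (7.24 ± 0.34 and 8.02 ± 0.19) and far apart at 48 h (2.27 ± 0.14 and 7.17 ± 0.22).

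**Figure D3:**
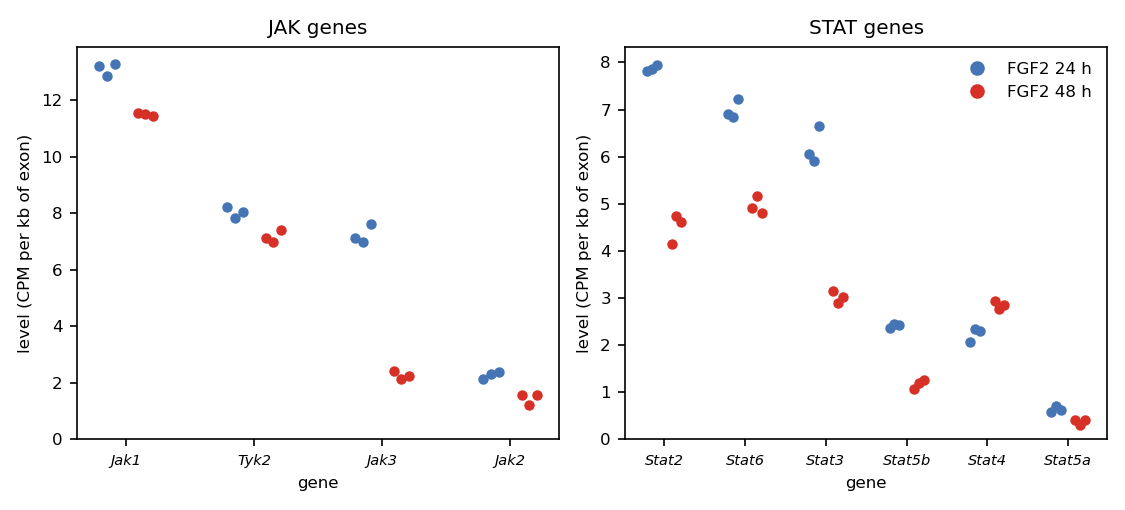
Level of the 4 JAK genes (left) and 6 STAT genes (right) in CPM per kb of exon (linear axis from 0), 1 point per library, blue for 24 h and red for 48 h. Jak3 falls away from Tyk2, and each STAT gene drawn is lower at 48 h except Stat4.

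Stat3 (ENSMUSG00000004040, chr11:100885098-100939540, minus strand), the transcription factor through which LIF sustains self-renewal, had 57.8, 56.3 and 63.3 CPM at 24 h and 30.01, 27.5 and 28.7 CPM at 48 h. Replicate 3 of 24 h was the highest, and no 48 h library came near the 24 h range. The log2 fold change was -1.04 ± 0.05 (standard error) and -0.99 without that replicate. Exons of Stat5a on the opposite strand cover 72 bases of Stat3. Among the other STAT genes followed, Stat5b, Stat2, Stat5a and Stat6 fell, with log2 fold changes of -1.04 ± 0.09, -0.81 ± 0.05, -0.77 ± 0.15 and -0.50 ± 0.05 (adjusted p at most 0.000333, that of Stat5a). Stat2 encodes a factor of the interferon response. Stat4 rose from 7.96, 9.08 and 8.86 CPM to 11.3, 10.7 and 11.01 CPM (log2 fold change 0.35 ± 0.09, adjusted p = 0.00217). Stat5a and Stat5b are near-identical neighbours whose counts were fractional in all libraries, so reads could be split between them. Exons of Stat4 overlap those of Gm28177 on the same strand, which leaves its level uncertain too.

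At 24 h these 6 STAT genes stood in the order Stat2, Stat6, Stat3, Stat5b, Stat4 and Stat5a per kilobase of exon, with Stat3 at 6.21 ± 0.39 CPM per kb (SD, n = 3). At 48 h Stat6 came before Stat2, and Stat3 (3.02 ± 0.13) and Stat4 (2.84 ± 0.08) overlapped. Stat3 held 23.5% ± 0.92 of the summed level of the 6 genes at 24 h and 17.9% ± 1.03 at 48 h, and Stat4 held 8.46% ± 0.50 and 16.9% ± 0.71. The sum went from 26.4 ± 0.72 to 16.9 ± 0.23 CPM per kb, while that of the 4 JAK genes went from 30.6 ± 0.69 to 22.4 ± 0.45.

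Socs3 (ENSMUSG00000053113, chr11:117966079-117970047, minus strand), the feedback inhibitor that STAT3 itself induces, was the least abundant of the 9 genes. It had 3.905, 4.004 and 6.10 CPM at 24 h and 1.84, 1.69 and 2.12 CPM at 48 h, on 37 to 144 counts per library. All 48 h values lay below those of 24 h, but replicate 3 of 24 h was 1.54 times the mean of the other two libraries, a ratio that 2.15% of tested genes exceeded. The log2 fold change of -1.32 ± 0.19 (standard error) was -1.07 without that library and -1.43 without replicate 1 of 24 h.

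The letters TTCNNNGAA, the core that STAT dimers are known to bind, read the same on both strands. They were found in the RefSeq window of Socs3 alone among the 11 windows of the 9 genes, and in 8.3% of all 32851 windows. The site is shown with its flanks, chr11:117969502-117969530 of GRCm38.p6 on the minus strand, with the match in capitals. It begins 154 bases before the RefSeq start, but that start lies inside the gene coordinates given for Socs3, and so does the site. The windows of Lifr, and the window of Pim1 at chr17:29492835-29493134, also lie inside the coordinates of those genes.
Socs3: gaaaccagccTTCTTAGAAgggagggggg
No window of the 9 genes held the stricter TTCCNGGAA, which 1.148% of all windows held. That no match was found says only that these letters are absent from these short windows.

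The other inhibitor genes went both ways. Of the 11 other SOCS, CISH and PIAS inhibitor genes all were tested by edgeR, 3 rising and 3 falling, where 30.9% of all tested genes were called higher and 31.9% lower. Their median log2 fold change was -0.08, beside -0.01 for all tested genes. Socs2, an inhibitor of growth hormone signalling, rose from 51.3, 50.2 and 50.01 CPM to 71.8, 67.5 and 73.2 CPM (log2 fold change 0.49 ± 0.04, adjusted p = 9.05e-09). Socs4 rose (0.36 ± 0.05, adjusted p = 5.94e-06), as did Pias1 (0.18 ± 0.04, adjusted p = 0.000684). Socs7, Socs5 and Pias2 fell, with log2 fold changes of -0.34 ± 0.05, -0.25 ± 0.08 and -0.19 ± 0.02. Socs5 (edgeR adjusted p = 0.0154) lost its call without replicate 3 of 24 h (0.0722) or replicate 2 of 48 h (0.0616), and with DESeq2 (0.0846, the highest over the alternatives). Cish, a STAT5 target, did not pass (-0.65 ± 0.29, adjusted p = 0.0599) but was called without replicate 1 of 48 h (-1.02, adjusted p = 0.0113), the lowest over the alternatives, with scaling by library size alone (0.0416), with limma voom (0.0415) and with at least 10 counts in every library (0.0373). Its highest adjusted p was 0.218, and Socs1 did not pass either (-0.29 ± 0.23, adjusted p = 0.281). Exons of genes on the opposite strand cover 740 bases of Cish, so their reads may be among its counts. The share of Socs3 in the summed level of the 8 SOCS and CISH genes per kilobase was 7.04% ± 1.82 at 24 h and 2.68% ± 0.28 at 48 h (SD, n = 3), while the sum itself went from 22.9 ± 0.16 to 24.3 ± 0.49 CPM per kb. Whether Socs3 differed from the other inhibitors beyond chance was not tested.

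Of 4 tyrosine phosphatase genes that act on this pathway 2 rose and 1 fell, where 62.8% of all tested genes were called. Their median log2 fold change was 0.11, beside -0.01 for all tested genes. Ptpn2 and Ptpn1, whose products remove phosphate from JAK and STAT proteins, rose by log2 fold changes of 0.32 ± 0.04 (edgeR adjusted p = 1.03e-05) and 0.23 ± 0.04 (6.14e-05). Ptpn6 fell by -0.59 ± 0.05 (5.06e-08).

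Of 11 genes known as STAT3 targets in embryonic stem cells 8 were called by edgeR, 4 higher and 4 lower, where 30.9% of all tested genes were called higher and 31.9% lower. Shares this near to those of all genes are no result about the list, whose median log2 fold change was -0.08, beside -0.01 for all tested genes. The genes that fell were Bcl3, a nuclear partner of NF-kappaB, and the naive pluripotency factors Tfcp2l1, Klf4 and Klf5. Bcl3 went from 8.21, 6.93 and 9.49 CPM to 1.7, 1.42 and 1.62 CPM (log2 fold change -2.38 ± 0.15, adjusted p = 7.92e-10). Klf4 went from 110.7, 111.3 and 135.7 CPM to 26.4, 26.2 and 26.8 CPM (adjusted p = 9.95e-14). Replicate 3 of 24 h was again the highest library for both genes. Klf5 went from 98.9, 100.9 and 109.97 CPM to 38.9, 35.7 and 37.2 CPM (log2 fold change -1.47 ± 0.05, adjusted p = 4.75e-14). Tfcp2l1 went from 288.4, 288.2 and 304.5 CPM to 62.4, 62.6 and 60.5 CPM (log2 fold change -2.25 ± 0.03, adjusted p = 2.67e-18). The counts of Tfcp2l1 were fractional in all libraries. Exons of Gm23497 on the same strand cover 130 of its bases, so its level is uncertain by any reads divided between them.

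The target genes that rose were Sgk1, Gbx2, Myc and Mcl1. Sgk1, a serine/threonine kinase, went from 122.5, 125.7 and 130.3 CPM to 289.2, 289.6 and 292.1 CPM (log2 fold change 1.20 ± 0.02, edgeR adjusted p = 2.8e-16). Gbx2, which can itself sustain self-renewal, rose from 12.7, 11.8 and 11.7 CPM to 20.8, 19.3 and 20.07 CPM (0.74 ± 0.07, adjusted p = 1.22e-07). Exons of a gene on the opposite strand cover 946 bases of Gbx2. Myc and the survival gene Mcl1 rose by 0.62 ± 0.05 (2.48e-08) and 0.55 ± 0.02 (4.48e-13). Pramel7 and Junb did not pass, at 0.31 ± 0.22 (adjusted p = 0.223) and -0.08 ± 0.20 (0.756). The list was put together with earlier results on some of these genes known, so these values are a description.

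Proteins that PIM kinases phosphorylate were followed at the RNA level. Of 8 such genes 5 were called by edgeR, 2 higher and 3 lower, a share near the 62.8% of all tested genes. Their median log2 fold change was 8.31e-05, beside -0.01 for all tested genes. Cdc25a, a phosphatase that drives entry into S phase, rose from 95.4, 94.5 and 93.3 CPM to 134.9, 128.99 and 134.05 CPM (log2 fold change 0.49 ± 0.03, adjusted p = 1.66e-10). Map3k5, a stress kinase, rose by 0.54 ± 0.07 (3.28e-06). Bad, a promoter of cell death that PIM kinases inactivate, fell from 7.66, 9.62 and 8.73 CPM to 7.04, 5.62 and 6.90 CPM (-0.41 ± 0.11, adjusted p = 0.00464). The cell cycle inhibitor gene Cdkn1b fell by -0.32 ± 0.03 (2.83e-07) and Cdc25c by -0.27 ± 0.06 (0.000945). Exons of genes on the opposite strand cover 524 bases of Bad and 623 of Cdc25c, so reads of those genes may be among their counts. Akt1s1 did not pass (0.07 ± 0.04, adjusted p = 0.133). Against the difference of 3.37 for Pim2, no gene of this list differed by more than 0.54 on the log2 scale.

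**Figure D4:**
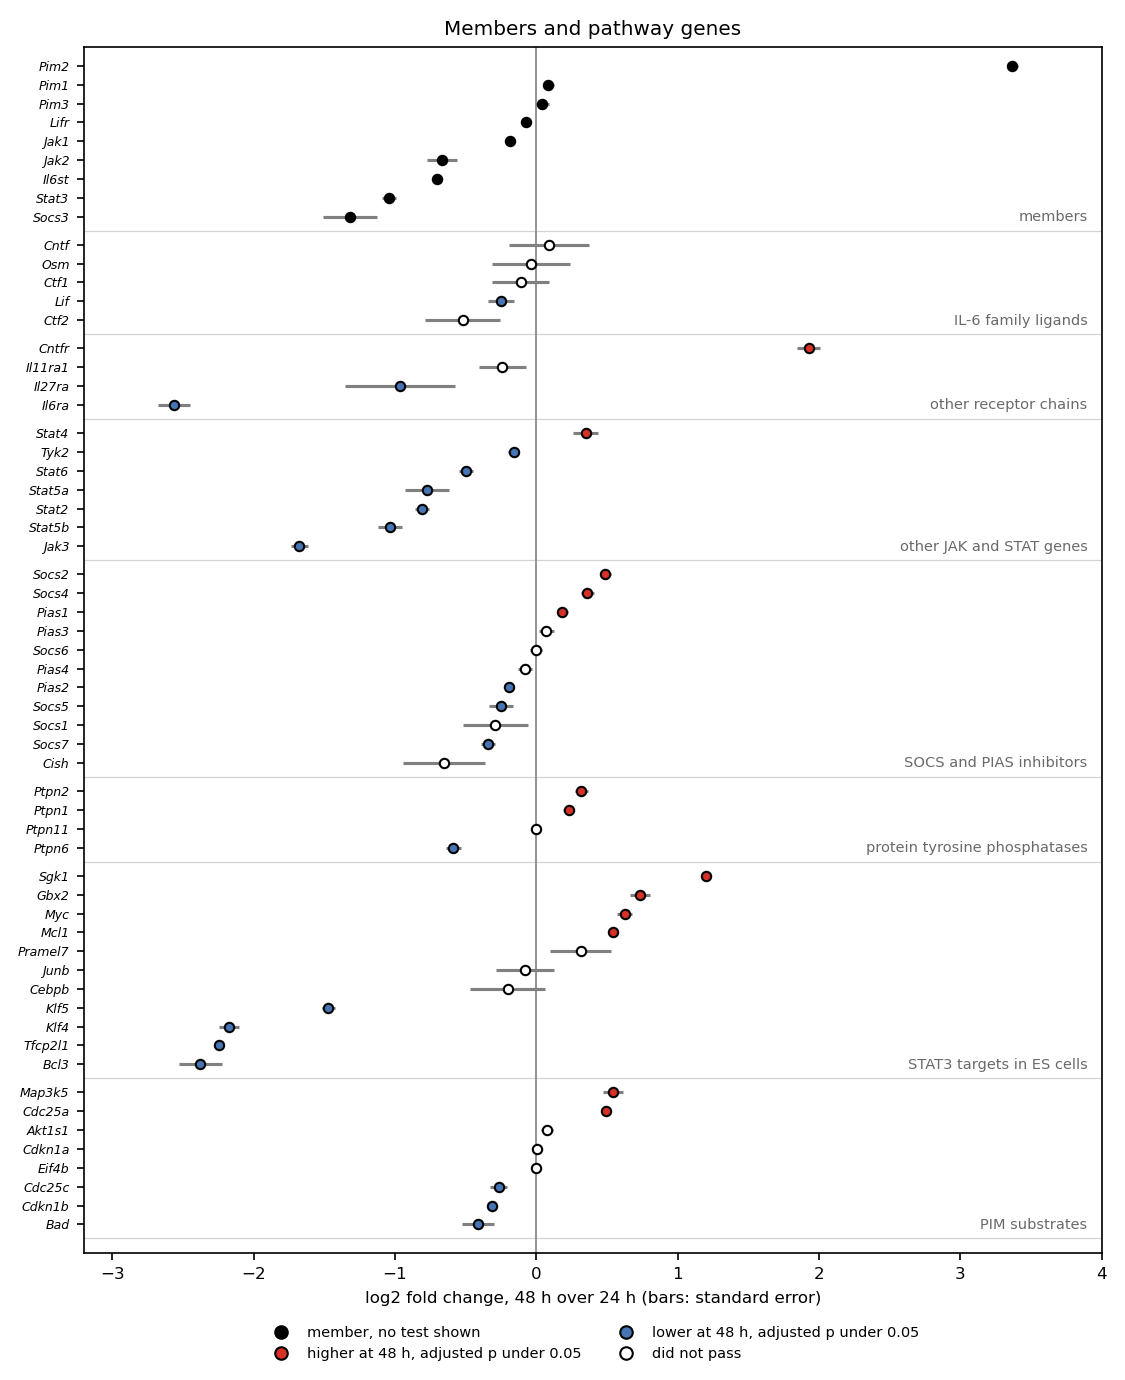
Log2 fold change of 48 h over 24 h with its standard error for the 9 genes (black, top) and for the tested genes of 7 pathway lists, red where higher and blue where lower at an adjusted p under 0.05 and white where neither. Pim2 at 3.37 lies beyond every other gene drawn, and Il6ra at -2.57 is the lowest.

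Over the 7 lists together 50 of 56 genes were tested and 33 were called by edgeR, 13 higher and 20 lower, where 62.8% of all tested genes were called. The values did not overlap for 35 of the 50, where 66.9% of all tested genes did not. Both shares were near those of all genes.

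Genes with the profile most like that of 3 of the genes were looked up by the Euclidean distance between log2 CPM profiles over the 6 libraries, each centred on its own mean. Genes averaging under 5 CPM were left out. With groups this tight the distance mostly follows the fold change. Like fold changes among neighbours therefore come from the way they were picked and are no separate result. Nearest to Pim2 were Dnmt3b (distance 0.20), Gadd45g (0.36) and Lef1 (0.39), with log2 fold changes of 3.35, 3.51 and 3.13. Dnmt3b was far more abundant than Pim2, at 137.01 ± 10.001 and 1390.5 ± 14.9 CPM, and Gadd45g less, at 2.46 ± 0.34 and 27.96 ± 1.79 CPM (SD, n = 3). Nearest to Pim1 were Usp1, Rab11b and Smc1a, at distances of 0.02 each. Nearest to Socs3 were Cpe, Ror2 and Ttll6, at 0.35, 0.39 and 0.40, with log2 fold changes of -1.25, -1.22 and -1.35.

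Ordered by level per kilobase of exon at 24 h, the 9 genes ran Pim3, Lifr, Jak1, Pim1, Il6st, Pim2, Stat3, Jak2 and Socs3. Of these neighbours Pim2 (6.48 ± 0.20 CPM per kb) and Stat3 (6.21 ± 0.39) overlapped, and the others did not. Overlap here covers only the spread between libraries, not an error in exon length, so the order of close neighbours is uncertain at both times. At 48 h the order was Pim2, Pim3, Lifr, Pim1, Jak1, Il6st, Stat3, Jak2 and Socs3, with no overlap between neighbours, from 67.04 ± 1.28 CPM per kb for Pim2 to 0.65 ± 0.08 for Socs3 (SD, n = 3).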

How the data were processed

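The table deposited by the authors holds RSEM expected counts per gene, 1 column per library, not scaled for depth or length. Per the submitters' processing notes, cutadapt 1.9.1, STAR 2.5.2, RSEM 1.3.0 and GRCm38 were used; annotation, strand setting and filters are not given in the sources used here. RSEM divides reads that fit several genes, so counts can be fractional. A gene name table matched 51633 of the 51912 identifiers to symbols; exons and coordinates came from GENCODE M21 (GRCm38), and promoters from RefSeq (GRCm38.p6). Columns left without a sample numbered 0.

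Counts were rounded, filtered with filterByExpr (minimum count 10), scaled by TMM and compared with edgeR 4.0.16 (glmQLFit, glmQLFTest; R 4.3.3). The model held the time group alone, with Benjamini-Hochberg adjustment over all tested genes and calls at an adjusted p under 0.05. The standard error is the log2 fold change divided by the square root of F. Profiles used a prior count of 2. The fit was tested on simulated data in which 200 genes were changed. In the real data 9345 were called, so the simulation does not show how the fit behaves where most genes differ. Alternatives used DESeq2 1.42.0, limma 3.58.1 and the settings named in the closing section. Replicate pairs differed by at least 1.82 per degree of freedom in a chi-square test, so all 6 libraries were kept.

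The 9 genes and the lists were chosen with earlier results of these data known. All 9 genes, any list gene, and the 3 genes nearest in profile to Pim2, Pim1 and Socs3 could be named. A gene left out of the lists, family sums and figures is not reported here.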

Additional observations from a re-analysis of the deposited data

How the results depend on the processing

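The differences of Pim2, Il6st, Jak1, Jak2, Stat3 and Socs3 kept their direction in all 14 alternatives, with log2 fold changes of 3.31 to 3.38, -0.77 to -0.68, -0.25 to -0.18, -0.73 to -0.55, -1.10 to -0.99 and -1.43 to -1.07. Lifr ranged from -0.14 to -0.06, Pim1 from 0.02 to 0.10 and Pim3 from -0.02 to 0.09. The low ends of Lifr, Pim1 and Pim3 came with library size as the only scaling, which took the median of all tested genes from -0.01 to -0.07. Lifr was called in 10 of the 14, Pim1 in 1 (RLE scaling in edgeR) and Pim3 in 0, and the other 6 genes in all 14. Those calls are a description, because the contrast was known when these genes were chosen, and nothing is read from their number. Across all genes DESeq2 called the fewest, 7986 of 14889 tested. The highest number, 9792, came with every gene with a count tested, but out of 26148 genes, so its share was lower. With 1 library left out 8737 to 8904 genes were called, out of 15143 to 15217 tested.

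The count of ligand genes called, 1 with all libraries, was 0 with DESeq2, 0 with every gene with a count tested, and 0 to 1 with 1 library left out. The other 6 list counts stayed within 1.5 times. Of the values of single list genes 495 stayed on their side of the threshold, 17 lost their call (Lif, Il27ra and Socs5), 4 gained it (Cish) and 3 turned sign, all of Junb, which ranged from -0.32 to 0.040 with 1 library left out and was not called in any fit. The other 10 list genes without a call were called in 1 setting at most. The cause was not tested.

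With the replicate number as a block, 9235 genes were called, and among the followed genes Il27ra lost its call (-0.96). Across genes, libraries with the same number had deviations from the mean of their time point that correlated at -0.05, -0.04 and -0.01. The numbers were therefore not taken as pairs. Depth limits the lists at the low end: 6 of the 56 genes had at most 17 counts in a library and were not tested.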

Other observations

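Among the 9 genes and the list genes that were lower at 48 h, replicate 3 held the highest of the 3 values at 24 h for 16 of 26 (61.5%), where it did so for 39.4% of all 4745 genes called lower. The excess was largest for Socs3, at 1.54 times the mean of the other two 24 h libraries, and was 1.25 times for Bcl3, 1.22 times for Klf4 and 1.11 times for Stat3. Ratios above these were seen in 2.15%, 5.86%, 6.7% and 13.4% of all tested genes. Cntfr, which rose, was lowest in the same library, at 0.755 times. The median ratio was 1.03 for the 26 genes and 1.01 for all genes called lower. This was noticed in the values and was not tested.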
